A study of Homo sapiens with 6 samples.

Results

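The epidermal differentiation complex is a cluster of genes on band q21 of chromosome 1 that encode proteins of the outer, cornified layers of stratified epithelia. Its members were taken here as all protein-coding genes of the deposited table within a fixed window of chromosome 1. On GRCh38 the first of them, S100A10, starts at position 151982915 and the last, NPR1, ends at 153693992. The rule gave 68 of the 58735 genes in the table. They were divided by gene name into 17 S100 genes, 11 SPRR genes, 18 LCE genes, 7 S100-fused genes and 15 other genes.

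Expression was measured by RNA sequencing in NCI-N87, an established gastric carcinoma cell line, to find genes whose expression depends on SCAMP1, a membrane protein of secretory and endocytic vesicles. Both groups were stable populations made with lentivirus and selected with puromycin (2 μg/ml), and the sources do not describe them as single clones. The control group, shNC, carried the negative control, which the study's methods describe as the vector without an insert, and the knockdown group, shScamp1, carried 1 shRNA against SCAMP1. Each group had 3 libraries that the labels call biological replicates; whether they came from separate infections is not stated, so p-values measure only the spread between these samples.

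The libraries held 15064905 to 15988700 reads on genes in shNC cells and 14311769 to 14667628 in shScamp1 cells. SCAMP1 itself was at 12.1 ± 0.562 FPKM (SD, n = 3) in shNC and at 1.69 ± 0.311 FPKM in shScamp1 cells, a reduction of 86.0% (log2 fold change -2.78, SE 0.14, adjusted p = 0.000248). FPKM is the number of fragments on a gene scaled to the length of the gene and to the size of the library. Every log2 fold change below is shScamp1 minus shNC on the log2(FPKM + 0.1) scale, which understates the change of genes with low values, and every adjusted p is from limma with Benjamini-Hochberg adjustment over 15556 genes. A gene was called at an adjusted p below 0.05.

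shScamp1 replicate 2 stood apart from the other libraries. Its mitochondrial share of reads was 9.21%, against 6.09% to 6.78% in the other 5 libraries, and its values fell with shorter gene length. Relative to the other libraries of its group, its median log2 difference was -0.455 over 1033 protein-coding genes under 2000 bases and 0.129 over 5810 genes of at least 5000 bases, whereas the shNC libraries stayed between -0.025 and 0.051 in the same classes. Genes of the complex are short: the 28 that passed the filter on low values had a median length of 1359 bases, against 5034 bases for all protein-coding genes tested, and 19 of the 28 were under 2000 bases. Values that moved most without this library are therefore also given without it.

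In stratified epithelia, keratinocytes that leave the basal layer withdraw from division and build the cornified envelope, a protein shell that transglutaminases crosslink beneath the plasma membrane. Involucrin forms an early scaffold of this shell, small proline-rich (SPRR) proteins bridge its components, and late cornified envelope (LCE) proteins and loricrin are added near the surface of the epidermis. S100-fused proteins such as filaggrin join an S100-type calcium-binding domain to long repeats and organise keratin filaments or enter the envelope. The S100 proteins of the cluster are small calcium-binding proteins, several of which are abundant in simple epithelia and carcinomas as well.

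Of the 68 genes, 46 had at least 1 read in at least 1 library and 28 reached a mean of 0.5 FPKM over the 6 libraries and were tested. In shScamp1 cells 8 of the 28 rose, where 8.82% of all genes tested were called higher, and 1 fell, where 5.17% were called lower. With an absolute log2 fold change above 1 as well, 7 were differentially expressed upward and 1 downward, where the shares of all genes tested were 2.42% and 0.746%; without shScamp1 replicate 2 the counts were 8 and 0, and the shares 2.52% and 0.977%. The groups did not overlap for 13 of the 28 genes (10 higher and 3 lower in shScamp1 cells), where 41.4% of all genes tested did not overlap. The median log2 fold change of the 28 genes was 0.03, and that of all genes tested was -0.02. The median of the members moved with single libraries and with the scaling: it was 0.22 without shScamp1 replicate 2, -0.07 without shScamp1 replicate 1 and -0.04 with libraries scaled by total reads, where the medians of all genes tested were -0.02, -0.02 and -0.09. TCHHL1 and HRNR passed the filter only through their values in shScamp1 cells, and of the other 26 genes 7 rose and 1 fell, with a median of -0.03. Both are among the 10 genes that were higher without overlap, and TCHHL1 is among the 7 differentially expressed upward. Over all genes tested, 1372 were called higher and 805 lower (63.0% higher), and this split became 1138 and 1268 (47.3% higher) when libraries were scaled by their total reads instead of by the authors' factors. The members called were 8 higher and 1 lower under both scalings.

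**Figure D1:**
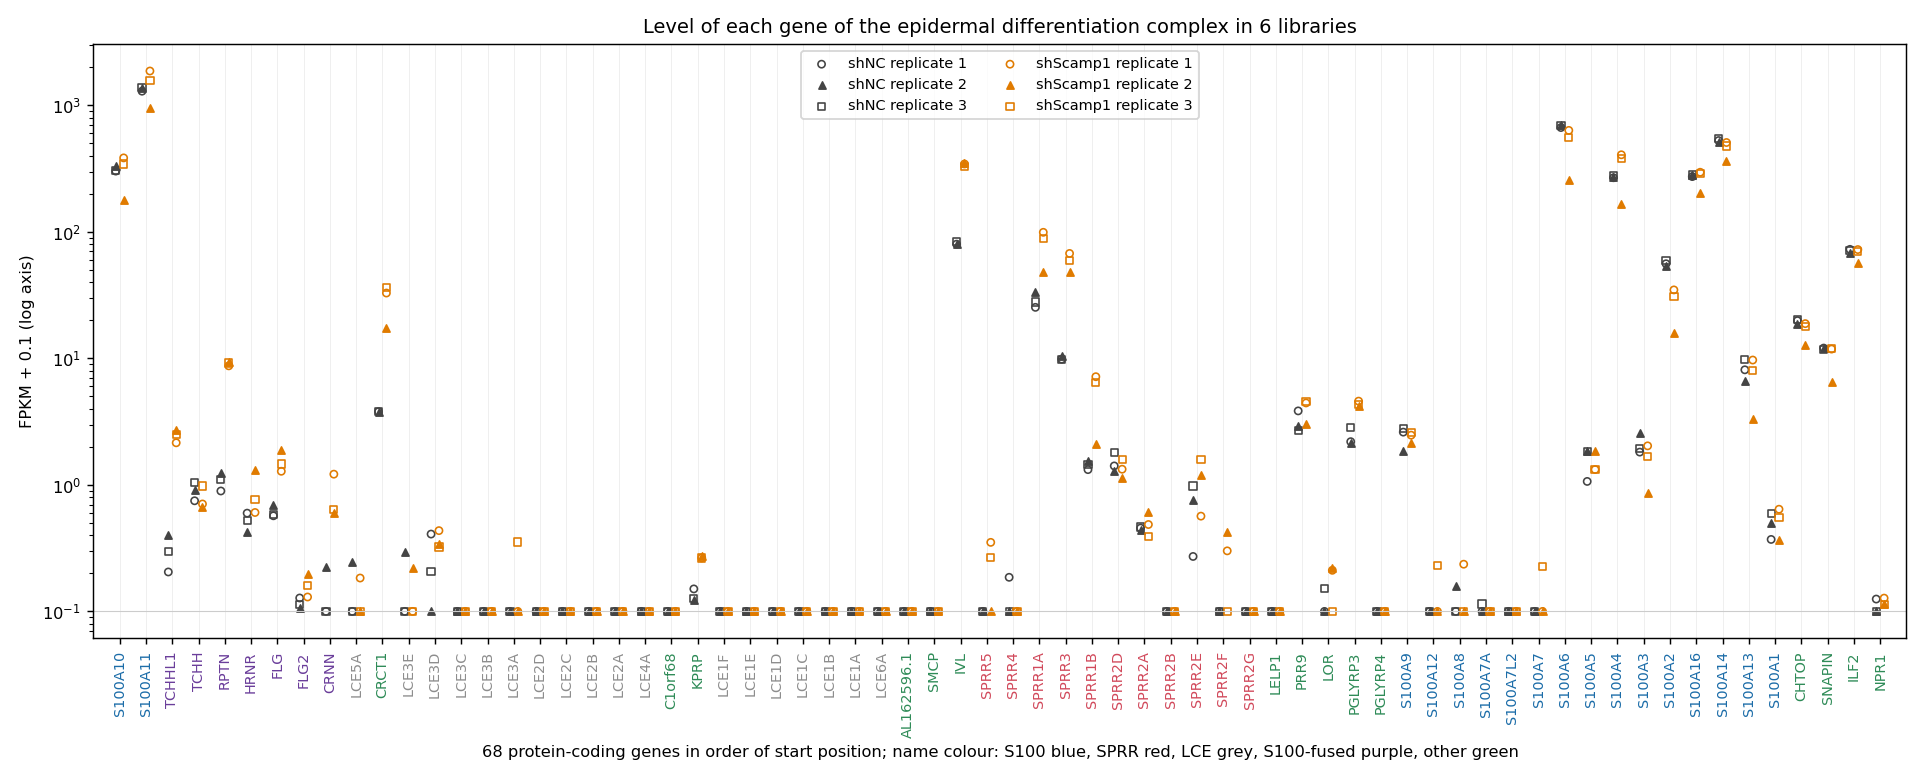
The level of each of the 68 genes in each of the 6 libraries is plotted as FPKM + 0.1 on a log axis, with the genes in order of start position and each symbol standing for 1 library. S100 genes at both ends of the complex sat highest, the 21 genes from LCE3E to SMCP lay at or near 0, and IVL, SPRR3, RPTN and CRCT1 showed the shScamp1 libraries above the shNC libraries.

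The levels are described in stretches along the chromosome, whose borders were chosen with the values known. At the start of the window, S100A10 and S100A11 (chr1:151982915-152047907) together held 1598 to 1716 FPKM in shNC cells. They held 2254.9, 1129.5 and 1928.3 FPKM in shScamp1 replicates 1, 2 and 3. The next 9 genes, from TCHHL1 to CRCT1 (chr1:152084144-152516010), summed to 6.24 to 7.14 FPKM in shNC and 33.3 to 51.0 FPKM in shScamp1 cells. CRCT1 alone was at 3.69 to 3.70 FPKM in shNC and 17.3 to 36.0 FPKM in shScamp1 cells. Of the 6 tested, TCHHL1, RPTN, FLG and CRCT1 rose, where 8.82% of all genes tested rose. TCHHL1 and HRNR, both among the 6, passed the filter only through their shScamp1 libraries. The 21 genes from LCE3E to SMCP (chr1:152565654-152885047), of which 17 are LCE genes, had 2 to 9 reads per library in all, and every one was under the filter or without reads. The 12 genes from IVL to SPRR2G (chr1:152908545-153150869) summed to 118 to 127 FPKM in shNC and 451 to 520 FPKM in shScamp1 cells. IVL alone was at 79.9 to 84.2 FPKM in shNC and 329 to 350 FPKM in shScamp1 cells. Of the 6 tested here, IVL, SPRR1A and SPRR3 rose (8.82% over all genes tested). The 5 genes from LELP1 to PGLYRP4 (chr1:153203443-153348840) summed to 4.88 to 5.84 FPKM in shNC and 7.14 to 8.95 FPKM in shScamp1 cells. Of the 2 tested here, PGLYRP3 rose (8.82% over all genes tested). Beyond PGLYRP4, the 6 genes from S100A9 to S100A7 (chr1:153357854-153460701) stayed between 1.83 and 2.75 FPKM in sum in all 6 libraries. The last 13 genes, from S100A6 to NPR1 (chr1:153534599-153693992), summed to 1908 to 1977 FPKM in shNC cells and to 1997, 1089 and 1846 FPKM in shScamp1 replicates 1, 2 and 3. The 8 genes that rose lay between TCHHL1 and PGLYRP3.

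Flanks of the same length as the window were compared on either side of it. With limma, 11 of 45 tested protein-coding genes before the window rose and 0 fell, and 1 of 41 after it rose and 2 fell. Of all genes tested, 8.82% rose and 5.17% fell. Before the window 5 fell at an unadjusted p below 0.05 and 2 with voom on recovered reads. Of all 15556 genes tested, 2284 fell at an unadjusted p below 0.05 and 1085 with voom. The median log2 fold change was 0.02 in the first flank and -0.19 in the second, against -0.02 over all genes tested. Without shScamp1 replicate 2, 12 of 45 rose and 5 fell before the window (median 0.06) and 5 of 41 rose and 8 fell after it (median -0.09), where 14.9% of all genes tested rose and 13.4% fell.

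Promoter sequences are shown for genes of the complex that rose, since keratinocyte genes of this cluster are known targets of AP-1, a dimer of FOS and JUN proteins that binds TGAGTCA or TGACTCA. The search used the wider TGANTCA, which leaves the middle base open, so a match to it need not be an AP-1 site. RefSeq windows of GRCh38.p14, from 250 bases before to 50 bases after the start site, were available for 60 of the 68 genes, CRCT1 not among them. The 250 bases before the start site of 3 genes that rose and of SPRR1B are given 5′ to 3′ on the gene's own strand, with TGANTCA and TATAAA letters in capitals. The IVL sequence lies at chr1:152908296-152908545 (forward strand), that of SPRR3 at chr1:153001499-153001748 (forward), that of RPTN at chr1:152159229-152159478 (reverse) and that of SPRR1B at chr1:153030953-153031202 (forward).
IVL: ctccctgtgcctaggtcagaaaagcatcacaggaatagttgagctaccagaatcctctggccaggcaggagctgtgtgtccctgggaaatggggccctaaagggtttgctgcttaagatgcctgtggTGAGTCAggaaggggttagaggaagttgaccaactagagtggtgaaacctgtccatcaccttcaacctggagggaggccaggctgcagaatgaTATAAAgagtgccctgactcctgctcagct
SPRR3: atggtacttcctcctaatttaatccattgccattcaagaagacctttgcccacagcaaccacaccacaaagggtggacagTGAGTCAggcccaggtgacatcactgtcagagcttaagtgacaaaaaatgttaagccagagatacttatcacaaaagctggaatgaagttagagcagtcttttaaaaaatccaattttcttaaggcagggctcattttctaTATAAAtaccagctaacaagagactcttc
RPTN: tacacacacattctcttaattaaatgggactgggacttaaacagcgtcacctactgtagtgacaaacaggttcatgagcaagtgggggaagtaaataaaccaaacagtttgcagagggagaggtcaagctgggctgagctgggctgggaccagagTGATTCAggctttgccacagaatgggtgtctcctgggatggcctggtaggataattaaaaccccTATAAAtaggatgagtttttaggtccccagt
SPRR1B: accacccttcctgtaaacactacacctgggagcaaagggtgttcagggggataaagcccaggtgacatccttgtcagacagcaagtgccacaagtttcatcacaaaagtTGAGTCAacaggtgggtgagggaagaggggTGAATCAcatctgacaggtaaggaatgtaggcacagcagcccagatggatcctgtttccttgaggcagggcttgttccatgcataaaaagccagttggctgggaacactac

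In IVL, SPRR3 and RPTN, TATAAA began 29 to 31 bases before the start site, and a single TGANTCA match began 123, 170 and 95 bases before it, respectively. The match was TGAGTCA in IVL and SPRR3 and TGATTCA in RPTN. SPRR1B had 2 TGANTCA matches, which began 141 and 111 bases before its start, and no TATAAA.

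The letters TGANTCA, which read the same on both strands, occurred in 18 of the 60 windows (30.0%) and in 7.71% of all 35116 RefSeq windows of that length. TATAAA on either strand occurred in 29 of the 60 (48.3%), against 11.5% of all windows, and in 25 of these genes a match began 20 to 40 bases before the start. AACCNGTT, a grainyhead motif, occurred in 6 windows (10.0%, against 1.73%) and GGGNGTGG, a KLF motif, in 9 (15.0%, against 17.2%), both searched on either strand. Of the 7 risen genes with a window, 1 held AACCNGTT, RPTN, and 0 held GGGNGTGG. The other AACCNGTT windows were those of LCE1A, SPRR2B, S100A9, SNAPIN and ILF2, which were not called or had no reads. In the 60 windows, 0 matches of a motif overlapped a match of another. By family, TGANTCA letters were found in 6 of 9 SPRR, 6 of 7 S100-fused, 3 of 16 S100 and 0 of 17 LCE windows. Of the 19 matches, 9 had the AP-1 consensus TGAGTCA or TGACTCA, and the other 10 had A or T as the middle base. The consensus occurred in 9 of the 60 windows (15.0%, against 4.95% of all windows), which were 5 of 9 SPRR, 0 of 7 S100-fused, 2 of 16 S100 and 0 of 17 LCE windows and those of IVL and PRR9. These are descriptions of sequence, not of binding, which was not measured.

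TGANTCA letters were held by 6 of the 7 risen genes with a window, the exception being PGLYRP3, and the AP-1 consensus by 3 of the 7, IVL, SPRR1A and SPRR3. The TGANTCA letters were not particular to them. S100A2, which fell, held a match 52 bases before its RefSeq start. Matches were also held by TCHH, SPRR1B, PRR9 and S100A3, tested and not called, and by FLG2, CRNN, SPRR2A, SPRR2F, S100A12, SPRR2G and LELP1, which were under the filter or had no reads. Counted from the RefSeq start in the direction of transcription, the annotated gene began at 2234 bases for PGLYRP3, 1150 for SPRR1A and -2046 for S100A2. For IVL, SPRR3, RPTN, TCHHL1 and FLG it began at -2 to 36 bases. The windows of PGLYRP3, SPRR1A and S100A2 may therefore not be the promoters of the counted transcripts. The matches of the remaining risen genes, of S100A2 and of TCHH and CRNN are given with 10 bases on either side, 5′ to 3′ on the strand of the gene and with the 7 matching bases in capitals, to compare their surroundings.
FLG (chr1:152325302-152325328): tggttaggaaTGAATCAgaccatccca
TCHH (chr1:152115527-152115553): tggttaggaaTGAATCAggccatccca
CRNN (chr1:152414340-152414366): ggatcttggaTGAATCAagccttccca
TCHHL1 (chr1:152089263-152089289): agtcagtaaaTGAATCAagaaaccccc
SPRR1A (chr1:152983963-152983989): gatggtagtgTGAGTCAtgtgtgacag
S100A2 (chr1:153565880-153565906): gagtgggctgTGACTCAcaggcatgtc

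FLG and TCHH shared 19 of the 20 bases around the match, where the median over all 171 pairs of matches was 5 of 20; FLG rose and TCHH was not called. Of the 6 genes for AP-1 subunits FOS, FOSL1, FOSL2, JUN, JUNB and JUND, all were tested, FOSL2 rose and the other 5 were not called, where 8.82% of all genes tested rose and 5.17% fell. Without shScamp1 replicate 2 FOSL1 was called higher as well (log2 fold change 0.33, adjusted p = 0.00996), where 14.9% of all genes tested were. FOSL2 was at 27.1, 26.7 and 27.4 FPKM in shNC and 35.1, 40.5 and 36.1 FPKM in shScamp1 cells.

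**Figure D2:**
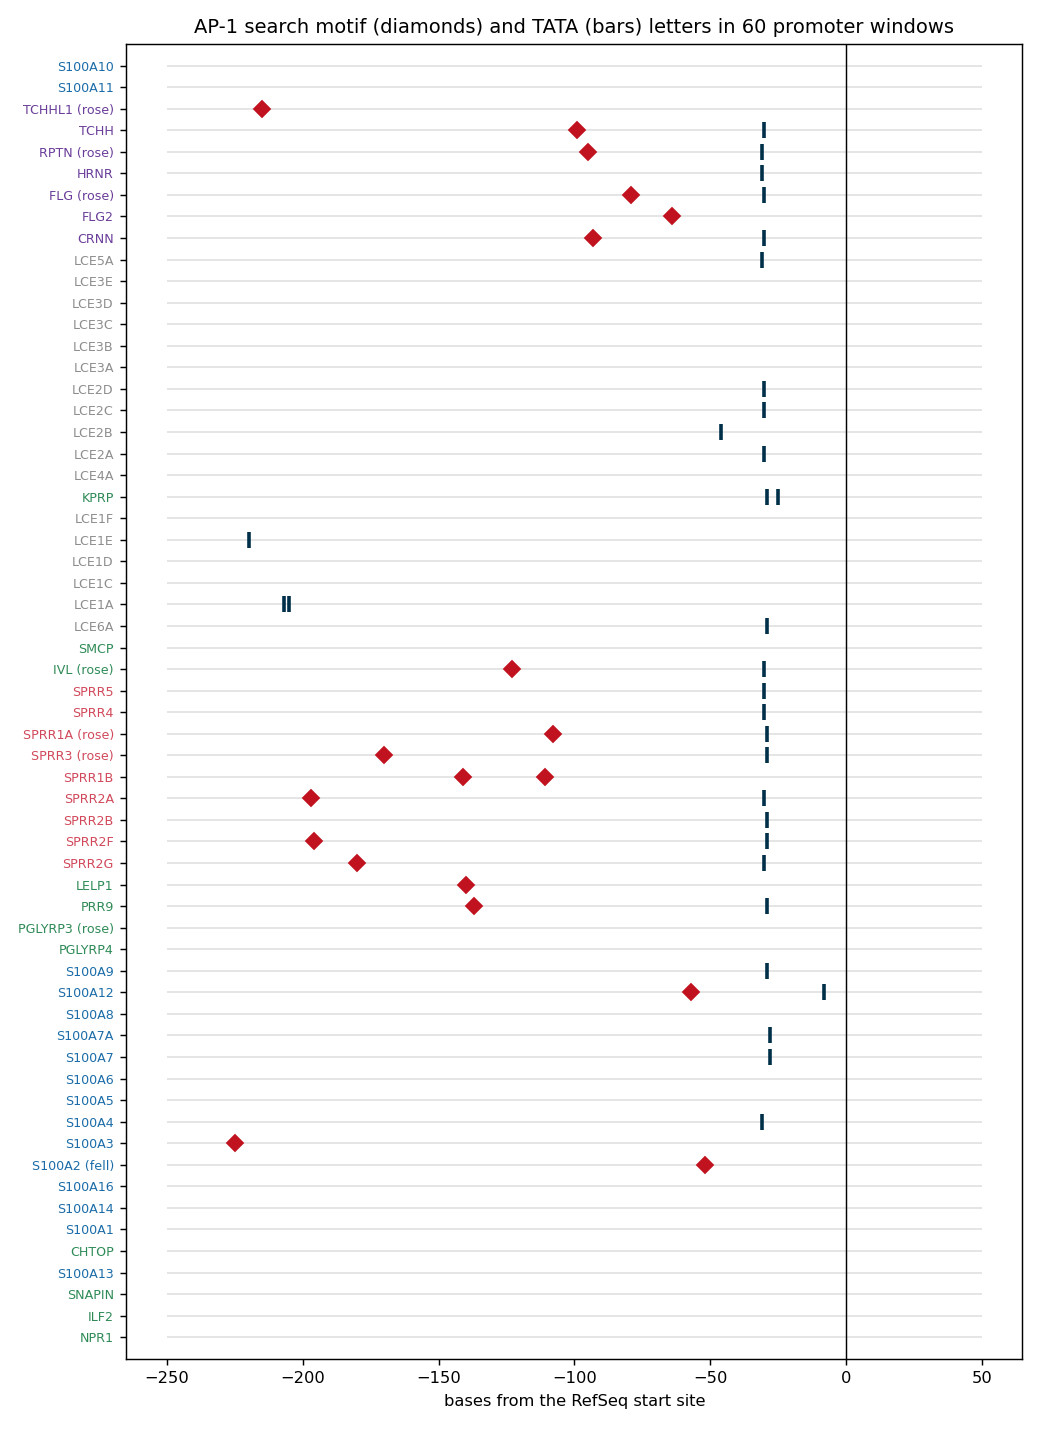
Positions of TGANTCA (red diamonds) and TATAAA (dark bars) letters are drawn in the 60 promoter windows, in bases from the RefSeq start site, with genes in order of position and the direction of called genes in brackets. TGANTCA letters lay 52 to 225 bases before the start and were absent from the LCE windows, and most TATAAA letters lay about 30 bases before the start.

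Involucrin carried the highest level among the genes that rose. IVL (ENSG00000163207, chr1:152908545-152911886, forward strand, 2 exons) was at 79.9, 80.3 and 84.2 FPKM in the shNC libraries and at 344, 350 and 329 FPKM in the shScamp1 libraries. The groups lay far apart, shScamp1 replicate 2 included, and the means differed 4.19-fold (log2 fold change 2.07, SE 0.07, adjusted p = 0.000165). Between 10322 and 10825 reads per shScamp1 library support this value. By FPKM, IVL ranked 7th of the 68 genes in every shNC library and 6th, 3rd and 6th in shScamp1 replicates 1, 2 and 3. Its share of the summed FPKM of the complex was 2.12% to 2.22% in shNC cells and 7.13%, 12.9% and 7.62% in shScamp1 cells, and the highest of these shares belonged to replicate 2, in which the S100 genes were low.

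Of the 7 S100-fused genes, 5 were tested, of which TCHHL1 and HRNR passed the filter through their shScamp1 libraries alone, so no count or median over the 5 is read. Their levels were low, and the 7 genes of the family summed to 2.97 ± 0.388 FPKM in shNC and 15.0 ± 0.947 FPKM in shScamp1 cells (SD, n = 3), of which RPTN held the largest part. RPTN (chr1:152153595-152159228), which encodes repetin, a precursor of the cornified envelope, was at 0.795, 1.14 and 0.998 FPKM in shNC and at 8.63, 9.23 and 9.10 FPKM in shScamp1 libraries. The shScamp1 libraries were tightly grouped, and the means differed 9.18-fold (log2 fold change 3.09, SE 0.13, adjusted p = 0.000168).

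TCHHL1, trichohyalin-like 1, lies 2 genes before RPTN and had 6, 18 and 11 reads in shNC and 108, 130 and 126 reads in shScamp1 libraries. These reads correspond to 0.105, 0.300 and 0.198 FPKM and to 2.05, 2.64 and 2.39 FPKM. TCHHL1 was thus barely detected in control cells, and the ratio of the means was 11.7 (log2 fold change 3.08, SE 0.30, adjusted p = 0.00192). It passed the filter only through its shScamp1 libraries, so its call is not read as support.

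FLG encodes profilaggrin, which is processed to filaggrin and aggregates keratin filaments. Its values were 0.470, 0.588 and 0.488 FPKM in shNC and 1.18, 1.78 and 1.36 FPKM in shScamp1 libraries, and replicate 2 was the highest here, in contrast to most short genes of the complex. The log2 fold change was 1.31 (SE 0.21, adjusted p = 0.0124). The call was lost without shNC replicate 1 (adjusted p = 0.0557), shNC replicate 3 (0.0539) or shScamp1 replicate 3 (0.0540).

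TCHH, which encodes trichohyalin of the hair root sheath, and HRNR, which encodes hornerin, were tested and not called. TCHH was at 0.649, 0.815 and 0.944 FPKM in shNC and 0.607, 0.564 and 0.879 FPKM in shScamp1 libraries, and the groups overlapped. HRNR was at 0.498, 0.324 and 0.424 FPKM in shNC and at 0.505, 1.21 and 0.668 FPKM in shScamp1 libraries; the groups did not overlap, and replicate 2 was by far the highest (log2 fold change 0.73, adjusted p = 0.237). Without that library HRNR no longer passed the filter.

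CRNN, which encodes cornulin of squamous epithelia, lay just under the filter with a mean of 0.380 FPKM. Its reads were 0, 4 and 0 in shNC and 31, 13 and 15 in shScamp1 libraries, so the groups did not overlap. With no filter on low values, which brought 33572 genes into the test and called 3.28% of them higher, CRNN was called (log2 fold change 2.56, adjusted p = 0.0426). FLG2, with 1 to 4 reads in shNC and 4 to 12 in shScamp1 libraries, was not called with no filter either (adjusted p = 0.338). FLG, FLG2, HRNR and CRNN lie entirely within the span of the antisense gene FLG-AS1 on the opposite strand, which had at most 23 reads in a library.

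**Figure D3:**
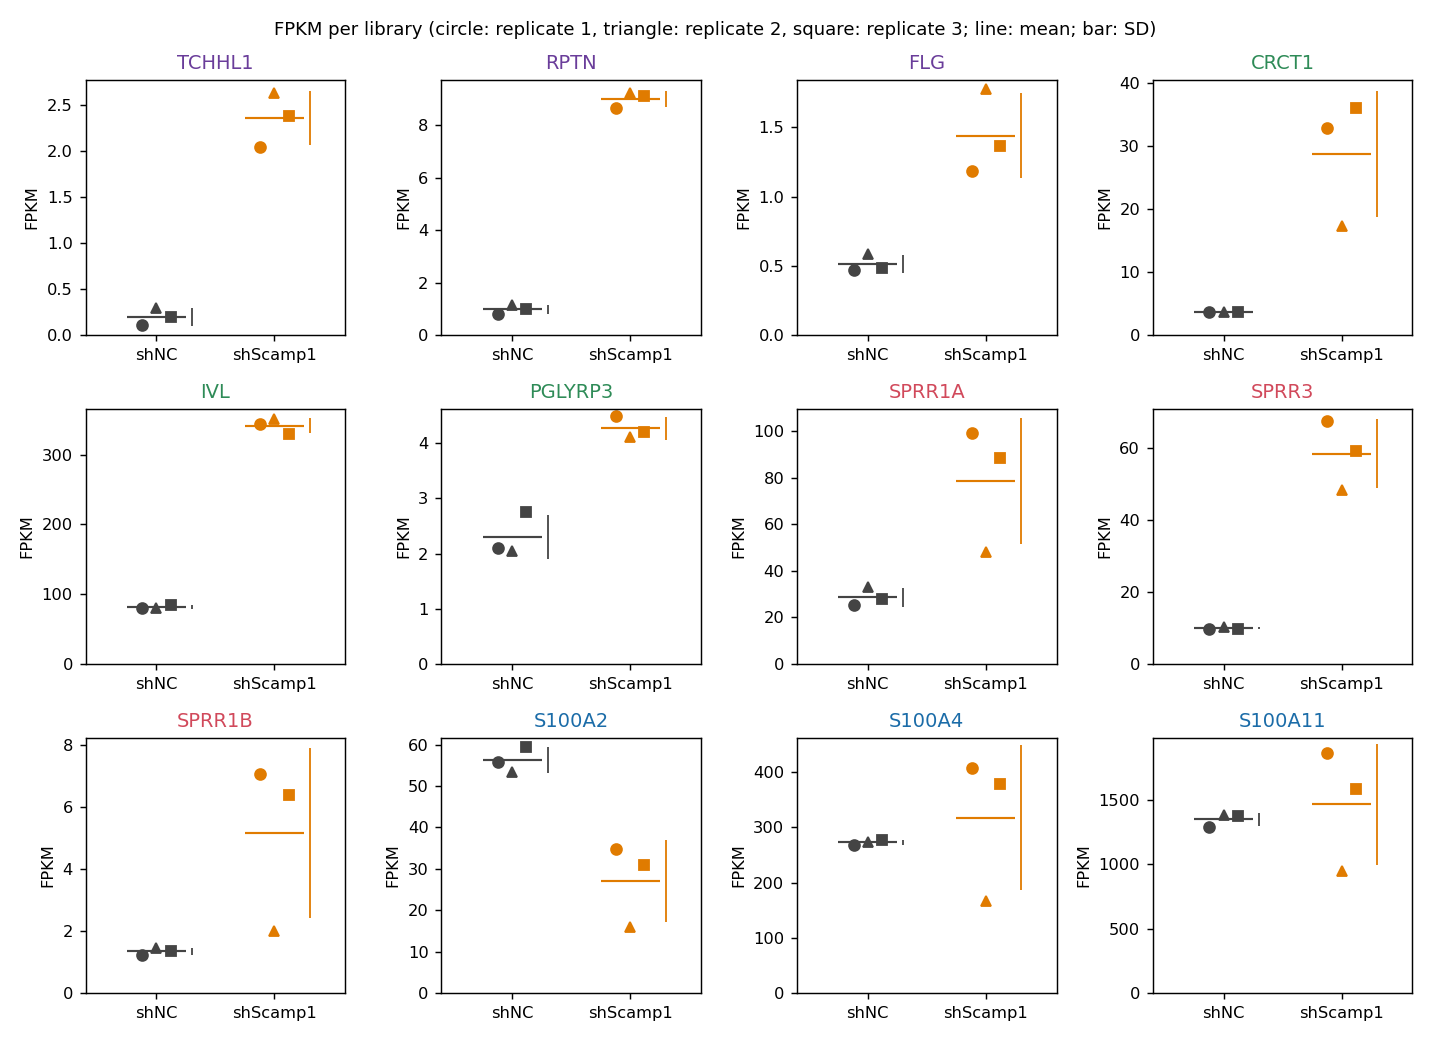
FPKM of 12 genes of the complex is plotted per library for shNC and shScamp1 cells, with a line at the mean and a bar of 1 SD beside the 3 points; each axis starts at 0. IVL, RPTN, TCHHL1 and SPRR3 showed widely separated groups, while in SPRR1B, S100A4 and S100A11 shScamp1 replicate 2 (triangle) lay far below the other shScamp1 libraries.

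Of the 5 tested SPRR genes, 2 rose (8.82% over all genes tested), with a median log2 fold change of 1.39 over the 5 (-0.02 over all genes tested). SPRR3 (chr1:153001747-153003856), which encodes the SPRR protein typical of the oesophagus, was at 9.76, 10.4 and 9.75 FPKM in shNC and at 67.5, 48.3 and 59.2 FPKM in shScamp1 libraries. The lowest shScamp1 library was still far above every shNC library, and the means differed 5.86-fold (log2 fold change 2.53, SE 0.13, adjusted p = 0.000248).

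SPRR1A held 56.2% to 70.3% of the summed FPKM of the family in 5 libraries; in shScamp1 replicate 2 it held 47.3% and SPRR3, at 47.8%, was the highest. Its values were 25.2, 33.1 and 27.8 FPKM in shNC and 99.2, 47.9 and 88.6 FPKM in shScamp1 libraries. The groups did not overlap, but replicate 2 lay closer to the shNC values than to the other shScamp1 libraries. The log2 fold change was 1.39 (SE 0.28, adjusted p = 0.0241). Without shScamp1 replicate 2 it was 1.71 (adjusted p = 0.000512), and without any of the other 5 libraries in turn the call was lost (adjusted p 0.0528 to 0.0973), as it was with no filter (0.0514) and with the replicate block (0.0687). The annotated gene is a single exon of 270 bases that begins 1150 bases after the RefSeq start site, so reads on other exons of this gene were not counted.

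SPRR1B was at 1.22, 1.45 and 1.36 FPKM in shNC and at 7.07, 2.00 and 6.39 FPKM in shScamp1 libraries. All 3 shScamp1 values exceeded all shNC values, and the 17 reads of replicate 2 stood against 64 and 58 in the others. SPRR1B was not called over all 6 libraries (log2 fold change 1.68, SE 0.46, adjusted p = 0.0605) and was called without replicate 2 (log2 fold change 2.24, adjusted p = 0.000148), with a filter of 10 reads on average (0.0424), over protein-coding genes only (0.0319) and with the length trend removed (0.0440). SPRR1A and SPRR1B share sequence, with 11.3% of the 50-base stretches of SPRR1A found in SPRR1B and 4.38% the other way, so some reads could count for either.

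The SPRR2 genes were low and overlapped between groups. SPRR2D had 21 to 28 reads in shNC and 15 to 23 in shScamp1 libraries (log2 fold change -0.15, adjusted p = 0.630; without replicate 2, -0.04), and SPRR2E had 2 to 10 and 5 to 16 reads (log2 fold change 0.81, adjusted p = 0.408). SPRR2A had 3 to 5 reads per library, SPRR2F up to 3, and SPRR2B and SPRR2G had none. Between 8.29% and 32.7% of the 50-base stretches of the SPRR2 genes occur in another gene, mostly in another SPRR2 gene, and their values are uncertain in that respect. The 11 SPRR genes together summed to 42.4 ± 4.52 FPKM in shNC and 145 ± 39.1 FPKM in shScamp1 cells, a ratio of 3.42, or 3.94 without replicate 2.

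The LCE genes were nearly silent. No read was found in any library for 14 of the 18, and LCE3A, LCE3D, LCE3E and LCE5A had 1 to 3 reads in the libraries where they were seen. All 18 genes together gave 18 reads over the 6 libraries. Of the 18, 11 share 5.19% to 28.3% of their 50-base stretches with another gene, and their values are uncertain in that respect. For a gene with no reads, the 3 reads that a count of 0 allows correspond to between 0.139 and 0.761 FPKM among LCE genes, depending on gene length and library; this limit covers counting error only. LCE genes are expressed late in epidermal differentiation, and at this depth no difference between groups was detectable for them. Loricrin, another late protein of the envelope, was also barely detected, and LOR had 0, 0 and 1 reads in shNC and 2, 2 and 0 reads in shScamp1 libraries. KPRP, keratinocyte proline-rich protein, had 2, 1 and 1 reads in shNC and 6 reads in each shScamp1 library (adjusted p = 0.0737 with no filter).

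Among the other 15 genes, CRCT1 and PGLYRP3 rose beside IVL. CRCT1 lies among the LCE genes, between LCE5A and LCE3E at chr1:152514502-152516010, and was at 3.69, 3.69 and 3.70 FPKM in shNC and at 32.8, 17.3 and 36.0 FPKM in shScamp1 libraries. Its shNC values were almost identical and all shScamp1 values were well above them, with replicate 2 the lowest. The means differed 7.77-fold (log2 fold change 2.86, SE 0.27, adjusted p = 0.00178), and without replicate 2 the log2 fold change was 3.18 (adjusted p = 2.05e-05). PGLYRP3, which encodes a peptidoglycan recognition protein with antibacterial activity, was at 2.10, 2.05 and 2.76 FPKM in shNC and at 4.49, 4.11 and 4.20 FPKM in shScamp1 libraries. Its groups were separate, with a log2 fold change of 0.87 (SE 0.13, adjusted p = 0.00901), and its neighbour PGLYRP4 had no reads.

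PRR9, a proline-rich gene next to LELP1, was at 3.75, 2.83 and 2.58 FPKM in shNC and 4.35, 2.91 and 4.45 FPKM in shScamp1 libraries, and the groups overlapped (log2 fold change 0.34, adjusted p = 0.322; without replicate 2, 0.53, adjusted p = 0.0570). The genes at the far end of the window have no role in the cornified envelope: ILF2 encodes an RNA-binding protein, CHTOP an mRNA export factor and SNAPIN a SNARE-associated protein. Their log2 fold changes were -0.10, -0.27 and -0.30, and without replicate 2 they were 0.01, -0.10 and -0.01, so most of the difference came from that library. Of the 3, 0 were called with limma, where 8.82% of all genes tested rose and 5.17% fell. The count was also 0 at an unadjusted p below 0.05 and with voom. SMCP, LELP1, C1orf68, PGLYRP4 and AL162596.1 had no reads.

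**Figure D4:**
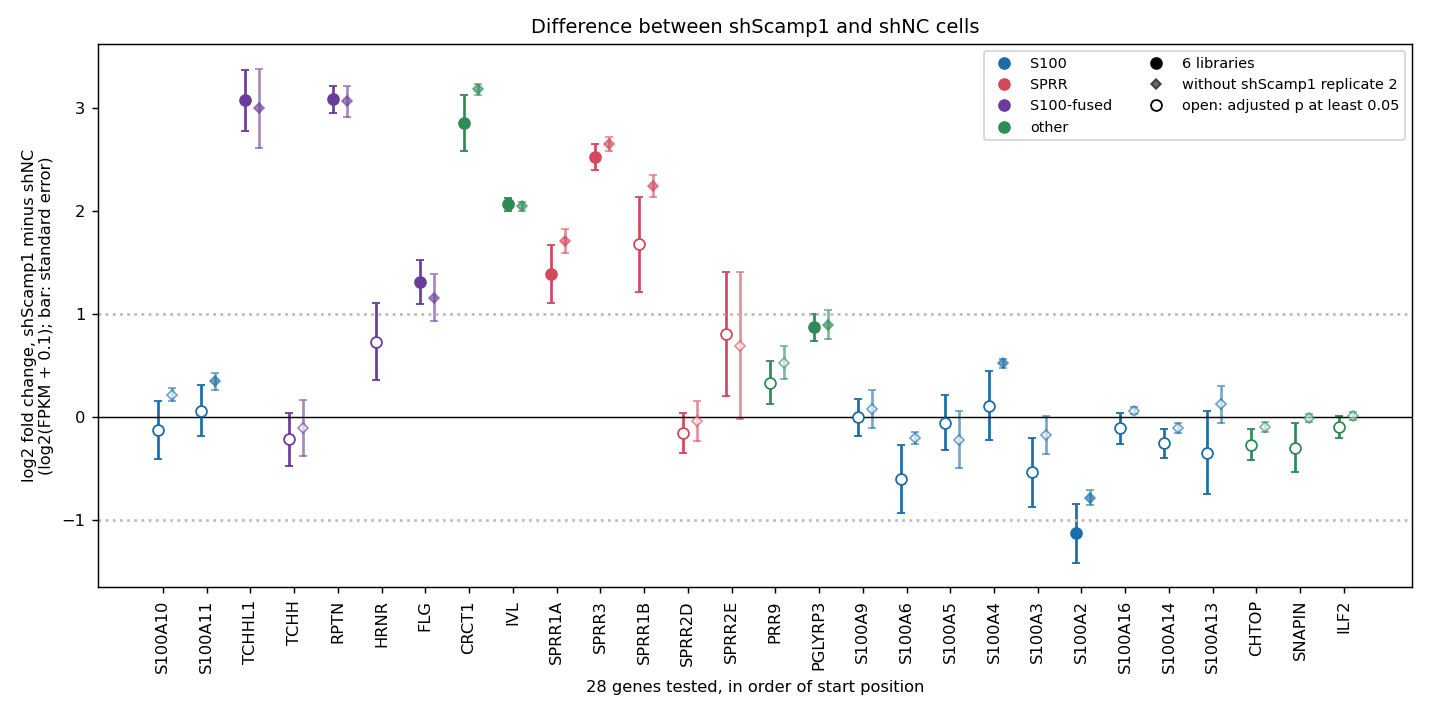
Log2 fold changes (shScamp1 minus shNC, on the log2(FPKM + 0.1) scale) with standard errors are plotted for the 28 genes tested in order of position; filled symbols are called, open symbols are not, and diamonds give the value without shScamp1 replicate 2, where HRNR has none. TCHHL1, RPTN, CRCT1, IVL and SPRR3 lay above 2 with and without that library, while the S100 genes lay between -0.60 and 0.11 over 6 libraries, except S100A2 at -1.13.

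The S100 genes held most of the summed FPKM of the complex. They summed to 3503 ± 86.0 FPKM in shNC and 3324 ± 1049 FPKM in shScamp1 cells (SD, n = 3), and the large spread came from replicate 2, with 2145 FPKM against 4152 and 3677 FPKM in replicates 1 and 3. The 6 genes S100A11, S100A6, S100A14, S100A10, S100A4 and S100A16 made up 97.9% to 98.9% of the sum in each library and ranked between 23rd and 101st of all 58735 genes by mean FPKM. The S100 share of the summed FPKM of the complex was 93.5% to 93.7% in shNC and 79.1% to 85.9% in shScamp1 cells. Of the 11 S100 genes tested with limma, 0 rose (also 0 at an unadjusted p below 0.05 and 0 with voom), 1 fell and 10 were not called, and the median log2 fold change was -0.12, where 8.82% of all genes tested rose, 5.17% fell and their median was -0.02. Without replicate 2, S100A4 and S100A11 were called higher and S100A2 lower, where 14.9% of all genes tested rose and 13.4% fell. The median over the 11 then turned to 0.07, where that of all genes tested was -0.02. The ratio of the summed S100 level in shScamp1 to that in shNC cells turned from 0.949 to 1.12. Of the 11, 10 were lower in replicate 2 than in both other shScamp1 libraries.

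S100A2, a calcium-binding protein of epithelial nuclei, was the gene that fell. Its values were 55.9, 53.4 and 59.6 FPKM in shNC and 34.7, 15.9 and 30.8 FPKM in shScamp1 libraries. The groups did not overlap, and replicate 2 was again the lowest (log2 fold change -1.13, SE 0.28, adjusted p = 0.0487). Without replicate 2 the gene was still called, at a log2 fold change of -0.78 (adjusted p = 0.0012). Without shNC replicate 1, 2 or 3 or shScamp1 replicate 3, the call was lost (adjusted p = 0.144, 0.135, 0.157 and 0.0880), as it was with no filter (0.0995), without the trend of variance with expression (0.0737) and with the replicate block (0.0589).

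S100A11, which transglutaminase can also build into the cornified envelope, was the most abundant gene of the complex, with 1295, 1385 and 1377 FPKM in shNC and 1870, 951 and 1584 FPKM in shScamp1 libraries. Replicates 1 and 3 lay above and replicate 2 below every shNC library, and the gene was not called (log2 fold change 0.06, SE 0.25, adjusted p = 0.888). Without replicate 2 it was called higher, by 0.35 (adjusted p = 0.0248).

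S100A4, which is associated with cell motility and metastasis, showed the same arrangement, with 268, 274 and 277 FPKM in shNC and 407, 167 and 379 FPKM in shScamp1 libraries. Its log2 fold change was 0.11 (SE 0.33, adjusted p = 0.847), and without replicate 2 it was 0.52 (adjusted p = 0.000843). S100A3, on the same strand, lies wholly inside the span of S100A4 and was at 0.765 to 2.45 FPKM, so its value is uncertain where reads of both genes meet.

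S100A6, or calcyclin, was at 668, 695 and 694 FPKM in shNC and 634, 259 and 560 FPKM in shScamp1 libraries. All shScamp1 values were below all shNC values, and the difference was not called (log2 fold change -0.60, SE 0.33, adjusted p = 0.267; without replicate 2, -0.20, adjusted p = 0.0567). S100A14 was also lower in all shScamp1 libraries, with 361 to 509 FPKM against 514 to 548 FPKM (log2 fold change -0.25, adjusted p = 0.274; without replicate 2, -0.10, adjusted p = 0.158). S100A10, the partner of annexin A2, was at 302 to 330 FPKM in shNC and 179 to 385 FPKM in shScamp1 libraries, and S100A16 at 274 to 282 and 204 to 296 FPKM; both overlapped between groups.

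The S100 genes of inflamed epidermis were low. S100A9, a subunit of calprotectin, was at 1.77 to 2.69 FPKM in shNC and 2.03 to 2.49 FPKM in shScamp1 libraries. S100A8, its partner, had at most 2 reads in a library, S100A7, S100A7A and S100A12 had at most 1, and S100A7L2 had none. S100A1 was the gene nearest the filter together with CRNN, with a mean of 0.403 FPKM, and overlaps S100A13 on the opposite strand; the nearest genes that passed were HRNR, TCHH and SPRR2E with means of 0.606, 0.743 and 0.793 FPKM.

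**Figure D5:**
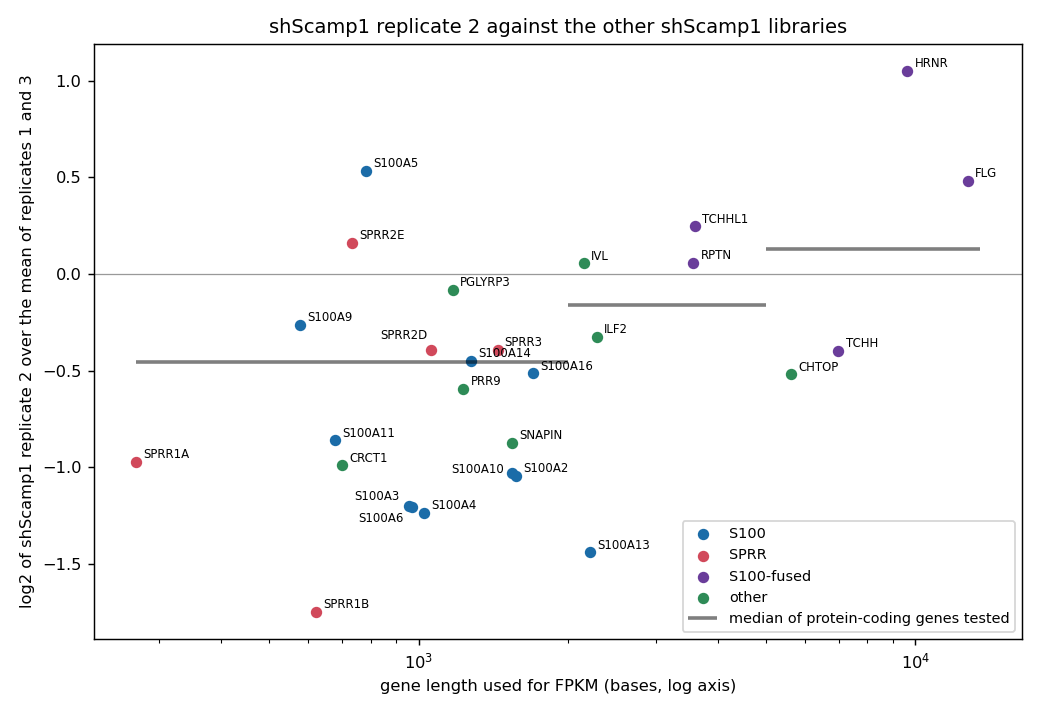
The log2 ratio of shScamp1 replicate 2 to the mean of shScamp1 replicates 1 and 3 is plotted against the gene length used for FPKM (log axis), with 1 point per gene tested and grey lines at the medians of all protein-coding genes tested in 3 length classes. Most S100 and SPRR genes lay below 0, whereas IVL, RPTN, TCHHL1 and FLG lay above 0.

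Without shScamp1 replicate 2, 27 genes were tested, 11 rose and 1 fell, where 14.9% of all genes tested were called higher and 13.4% lower. The 9 genes called over 6 libraries were all among these 12, and S100A4, S100A11 and SPRR1B joined them. The share of all reads that fell on the 68 genes was 0.421% to 0.433% in shNC cells and 0.537%, 0.320% and 0.492% in shScamp1 replicates 1, 2 and 3. The part of RNA quality in these differences was not tested.

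Genes outside the cluster that serve the cornified envelope were compared from a list of 26, of which 12 were tested. A2ML1, ABCA12, CST6 and PPL rose and 0 fell with limma (also 0 at an unadjusted p below 0.05 and with voom), where 8.82% of all genes tested rose and 5.17% fell. SLURP1, with means of 0.193 FPKM in shNC and 0.827 FPKM in shScamp1 cells, passed the filter through its shScamp1 libraries alone. It was not called (adjusted p = 0.0509), and no median over the 12 is read. Without shScamp1 replicate 2 EVPL joined A2ML1, ABCA12, CST6 and PPL as called higher, where 14.9% of all genes tested were. Among the enzymes that crosslink the envelope, TGM1, the main keratinocyte transglutaminase, was at 1.33 to 1.70 FPKM in shNC and 1.28 to 1.37 FPKM in shScamp1 libraries (log2 fold change -0.13, adjusted p = 0.577), and TGM3 and TGM5 were under the filter. Of 23 genes for transcription regulators of keratinocytes, 18 were tested, EHF, FOSL2, GRHL3, OVOL1, PRDM1 and SATB1 rose and CEBPA fell, a list median of 0.16. Without shScamp1 replicate 2, 14.9% of all genes tested rose and 13.4% fell. In that fit ELF3, FOSL1 and GRHL1 were called higher and CEBPB lower in addition, with a list median of 0.24. GRHL3, which encodes a grainyhead factor of the differentiating epidermis, had the greatest log2 fold change of the regulators tested over 6 libraries, 1.73 (SE 0.08, adjusted p = 0.000192), from 5.95, 6.38 and 5.49 FPKM to 20.5, 19.3 and 19.8 FPKM. Of S100P, S100B, S100G, S100Z and AGER, which lie elsewhere in the genome, 2 were tested and 0 were called with limma, at an unadjusted p below 0.05 or with voom, while S100P was called higher without shScamp1 replicate 2 (log2 fold change 0.84, adjusted p = 0.000539).

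Cell type markers were compared because the complex is a feature of keratinocytes and the cells are a gastric line; the shares over all genes tested, 8.82% higher and 5.17% lower, stand beside these counts too. Of 10 keratinocyte markers, 8 were tested and KRT4, KRT5, KRT6A, KRT14 and KRT16 rose, and the summed level of the list was 366 to 390 FPKM in shNC and 621 to 645 FPKM in shScamp1 libraries. The other 3 tested were not called, with log2 fold changes of -0.86 for KRT10 (adjusted p = 0.343), -0.13 for KRT13 (0.725) and 0.11 for DSG3 (0.369). KRT10, a keratin of differentiating epidermal cells, was at 41.4, 43.2 and 46.2 FPKM in shNC and at 42.2, 9.06 and 35.7 FPKM in shScamp1 libraries, lowest in shScamp1 replicate 2. Without that library the log2 fold change was -0.17 for KRT10 and 0.12 for KRT13, neither called. The defining markers KRT1, with at most 1 read, and TP63, with 2 to 4 reads per library, were at or near 0 in both groups. Of 8 markers of gastric epithelial cells, 7 were tested, KRT8, KRT18, KRT19 and CDH1 rose, EPCAM, ERBB2 and KRT20 were not called, and CLDN18 was at or near 0, with at most 1 read in a library. Their sum was 5492 to 5773 FPKM in shNC and 9126 to 10080 FPKM in shScamp1 libraries. Of 5 fibroblast markers, COL1A2, LUM and DCN had no reads and only COL1A1 was tested, at 0.533 to 0.666 FPKM in shNC and 0.476 to 0.773 FPKM in shScamp1 libraries (adjusted p = 0.865), and the 4 leukocyte markers summed to at most 0.0628 FPKM. In these bulk samples, more cells that express a gene and more RNA per cell cannot be told apart.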

How the data were processed

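RNA of 3 shNC and 3 shScamp1 libraries of NCI-N87 cells was analysed. The authors deposited FPKM values per gene for 58735 genes, all with GENCODE 29 coordinates. Their processing notes name hg38, HISAT2 2.0.5 and featureCounts 1.5.0-p3; strand and multi-mapping settings are not given in the sources used here. FPKM multiplied by gene length was a whole multiple of 1 step per library (100% of values above 0, within 0.001), which gave reads per gene; the steps followed a median-of-ratios size factor (0.914 to 1.11).

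Groups were compared with limma 3.58.1 in R 4.3.3 (lmFit, eBayes with trend, two-sided) on log2(FPKM + 0.1), over all 6 libraries and for genes that averaged 0.5 FPKM or more, with Benjamini-Hochberg adjustment over 15556 genes. An exact permutation test of 3 against 3 libraries cannot go below p = 0.1 and was not used. Beside counts of called genes the share called over all genes tested is given. Alternatives covered the pseudocount, the filter, the trend, the scaling, voom on recovered reads, a replicate block, unadjusted p-values, protein-coding genes only and leaving out each library; removal of the trend with gene length was chosen after seeing the data. The fit was tested on simulated reads with the same spread setting for every gene, no trend with gene length and no library like shScamp1 replicate 2. That test therefore does not cover the effect of this library.

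Named genes are the called members, up to 4 of the highest level per family and those nearest the filter; other genes were chosen with their values known. The members and lists were chosen with earlier results of these data known. Promoter windows come from RefSeq (GRCh38.p14) and were searched in Python 3.11.15. Shared sequence was counted as 50-base stretches of the longest GENCODE 29 transcript found in transcripts of another gene.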

Additional observations from a re-analysis of the deposited data

How the results depend on the processing

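For the 9 called genes, 170 values over 19 alternatives gave 0 changes of sign, 153 kept the call and 17 lost it. RPTN, CRCT1, IVL, SPRR3 and PGLYRP3 were called in every alternative, and the losses fell on FLG, SPRR1A and S100A2. TCHHL1 was also called in each. It passed the filter on low values only through its shScamp1 libraries, so its calls are not read as support. Genes of the complex called lower numbered 1 over all libraries and 0 with no filter, without the trend and with the replicate block, and 0 to 1 when single libraries were left out. Of all genes tested, 805 of 15556 were called lower over all libraries and 514 of 33572 with no filter. Without the trend 652 of 15556 were, with the block 254 of 15556, and with single libraries left out 166 to 2078 of 15458 to 15588. Genes of the complex differentially expressed numbered 8 over all libraries and 5 to 8 with single libraries left out. Among all genes tested they numbered 492 of 15556 and 364 to 540 of 15458 to 15588. The direction of S100 genes near 0 was not stable: S100A11 turned to -0.012 with scaling by total reads, S100A9 to 0.0078 with median-of-ratios rescaling, 0.0235 with voom and 0.0489 with the length trend removed, and S100A5 to 0.0149 with the length trend removed. Leaving out single libraries gave S100A10 -0.33 to 0.22, S100A11 -0.14 to 0.35, S100A9 -0.18 to 0.11, S100A5 -0.316 to 0.0862, S100A4 -0.12 to 0.52, S100A16 -0.202 to 0.0653, S100A13 -0.65 to 0.12 and ILF2 -0.161 to 0.0126. The cause was not tested.

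Over all genes, 2177 were called, against 817 to 4374 with single libraries left out (4374 without shScamp1 replicate 2), 958 with the replicate block and 4782 at an unadjusted p; differentially expressed genes numbered 492, and 248 with a pseudocount of 1. Removing the length trend called 10 genes of the complex, SPRR1B in addition, where 2805 of all genes tested (18.0%) were called. The labels do not say that the replicate numbers pair the samples. Deviations of same-numbered libraries correlated at -0.035, 0.032 and 0.067, and not every library correlated best with its own number. With 3 libraries per group this check cannot exclude a shared batch. With the block 7 genes of the complex were called, all among the 9, where 6.16% of all genes tested were called. Depth limits the 18 genes under the filter, with at most 31 reads in a library, and the 22 without reads, whose limit was 0.0792 to 0.761 FPKM.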

Other observations

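The window also holds 30 annotated rows that are not protein-coding, of which 16 had no reads and 2 were tested. BX470102.1, antisense to S100A6 and overlapping it, was at 2.97, 2.71 and 4.02 FPKM in shNC and at 1.93, 0.550 and 1.67 FPKM in shScamp1 libraries (log2 fold change -1.31, SE 0.44, adjusted p = 0.103). All 3 shScamp1 values were below the shNC values, as for S100A6 itself. BX470102.1 had 4 to 33 reads per library and shares 517 bases with S100A6, which had 3441 to 11240. The strand setting of the counting is not given, so reads of S100A6 could count for BX470102.1 and its value is uncertain. BX470102.2, a lincRNA between S100A2 and S100A16, had a log2 fold change of 0.17 (adjusted p = 0.731). Over all 6 libraries neither was called with limma or with voom, and BX470102.1 passed an unadjusted p below 0.05. Without shScamp1 replicate 2 their log2 fold changes were -0.79 (adjusted p = 0.0249, called lower) and 0.38 (0.390). AL591893.1, an unprocessed pseudogene that ends 3240 bases from TCHHL1 and was chosen after its values were seen, had 1, 0 and 0 reads in shNC and 9, 12 and 10 reads in shScamp1 libraries and was not tested. The pseudogenes LCEP1, LCEP2, LCEP4 and SPRR2C had no reads.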
